A study of Mus musculus with 6 samples.

Results

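Expression of the nuclear receptor superfamily was compared between C2C12 myoblasts with and without silenced PARP2. The 46 genes considered here are receptors of the nuclear receptor superfamily, chosen by name. The platform annotation has a probe set that names a single gene for 44 of them, out of 19938 genes in all, and each of the 44 has 1 such probe set. Nr1h2 and Nr2e3 had no such probe set and were not analysed here. The data are expression arrays of C2C12 cells, a mouse myoblast line, grown in high-glucose medium with serum. The cells carried a lentivirus, used at 40 MOI (multiplicity of infection), that coded either for a PARP2-specific shRNA (shPARP2) or for a scrambled shRNA (scPARP2), and both lines were kept under puromycin. There were 3 RNA samples per line, each measured on 1 Affymetrix Mouse Gene 1.0 ST array. Each condition is a single line, and the sources do not state that its 3 samples were separate cultures, so the p-values rest on a spread between arrays that may be technical.

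Nuclear receptors are transcription regulators. Most have a zinc finger DNA-binding domain, and many have a pocket for a small lipophilic ligand such as a steroid, a thyroid hormone, a retinoid or a fatty acid. Many of them bind the hexamer AGGTCA as a pair with a retinoid X receptor. Some recruit corepressor complexes in the absence of ligand and coactivators in its presence. In skeletal muscle the family is known for the control of oxidative and lipid metabolism, the response to thyroid hormone and glucocorticoids, and the circadian clock.

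In shPARP2 C2C12 cells 5 nuclear receptor genes were higher and 9 lower than in scPARP2 cells, or 31.8% of the 44 measured, beside 24.0% of all genes. In RNA from whole cultures, a lower signal from fewer cells of a kind cannot be told apart from less RNA per cell. The retinoid-related orphan receptor gene Rorb fell close to the background level. The COUP transcription factor gene Nr2f1 fell to about 50.6% of its signal, also to near that level. The retinoid receptor genes Rara, Rarg, Rxra and Rxrb and the thyroid hormone receptor gene Thra fell by smaller amounts, while the immediate-early receptors Nr4a1 and Nr4a2, the glucocorticoid receptor gene Nr3c1, Rora and Nr1d1 rose.

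The arrays carried the silencing. Parp2 read 8.94, 9.13 and 9.05 on the log2 scale in the scPARP2 samples and 7.86, 8.14 and 7.91 in the shPARP2 samples, which left 47.6% of the signal (log2 fold change -1.07, with a standard error, SE, of 0.10 and an adjusted p of 0.00103 in limma). Array medians lay between 7.04 and 7.18, and probe sets varied more within shPARP2 cells than within scPARP2 cells, with a median SD of 0.142 against 0.0753. All 8 myoblast markers measured read above background. In shPARP2 cells 6 of them (Myf5, Itga7, Myog, Chrna1, Cdh15 and Des) rose, where 18.0% of genes above background were higher. The summed signal of the 8 ranged from 13.55 to 13.61 (log2) in scPARP2 and from 14.04 to 14.33 in shPARP2 cells. The call of Des ended without any one scPARP2 array or without shPARP2 replicate 1 or 2 (adjusted p from 0.0743 to 0.148), with centred arrays (0.0850) and with quantile normalization (0.0534). Myod1 varied among the shPARP2 arrays, at 9.79, 10.19 and 8.89. Adipoq, Ptprc, Adgre1, Csf1r, Epcam and Pecam1, which mark adipocytes, leukocytes, epithelium and endothelium, read below the background level in both lines. Others of these lists read above it in the mean of 6 arrays: Cidec (7.21) and Plin1 (7.07) of the adipocyte markers, Cd68 (7.74) and Cd3e (6.77) of the macrophage and leukocyte markers, Krt8 (7.95), Cdh5 (6.79) and Krt18 (6.71) of the epithelial and endothelial markers, and Col2a1 (8.26) and Sp7 (6.69) of the osteoblast and chondrocyte markers. Among the marker lists of other cell types, only Cd68, also a lysosomal protein of many cells, passed the test, beside 24.0% of all genes. Its log2 fold change was -0.72 (adjusted p = 0.00119). The summed signal of the 5 macrophage and leukocyte markers, Cd68 among them, ranged from 9.11 to 9.19 in scPARP2 and from 8.69 to 8.91 in shPARP2 cells. The summed signals of the 5 adipocyte, 4 osteoblast and chondrocyte and 7 epithelial and endothelial markers overlapped between the lines, and 0 of these markers passed in limma or had an unadjusted p under 0.05. Ptprc, Adgre1, Csf1r and Cd3e, the macrophage and leukocyte markers measured besides Cd68, did not pass in limma (adjusted p from 0.582 to 0.951). The part of the myoblast marker and Cd68 differences in the receptor results was not tested.

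Of the 44 receptor genes, 28 read above background and 16 did not. Since the table has no detection calls, the level was set by genes that myoblasts are not known to use as a class: 1027 olfactory receptor genes, whose mean signals had a 95th percentile of 6.67. A receptor counted as above background when the mean of its 6 arrays exceeded it, whichever line was higher. Rarb, at a mean of 6.82, lay just inside the level, and Esr2, at 6.65, just outside. The number above background was 23 at the 99th percentile of the olfactory genes and 40 with the level of 167 vomeronasal receptor genes. Those lost at the 99th percentile were Rarb, Esrrg, Hnf4a, Nr1h3 and Nr5a1, and signals this near background allow less to be read about a change. Probe sets differ in their brightness for the same amount of RNA, so the signals of different receptors were not ranked.

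**Figure D1:**
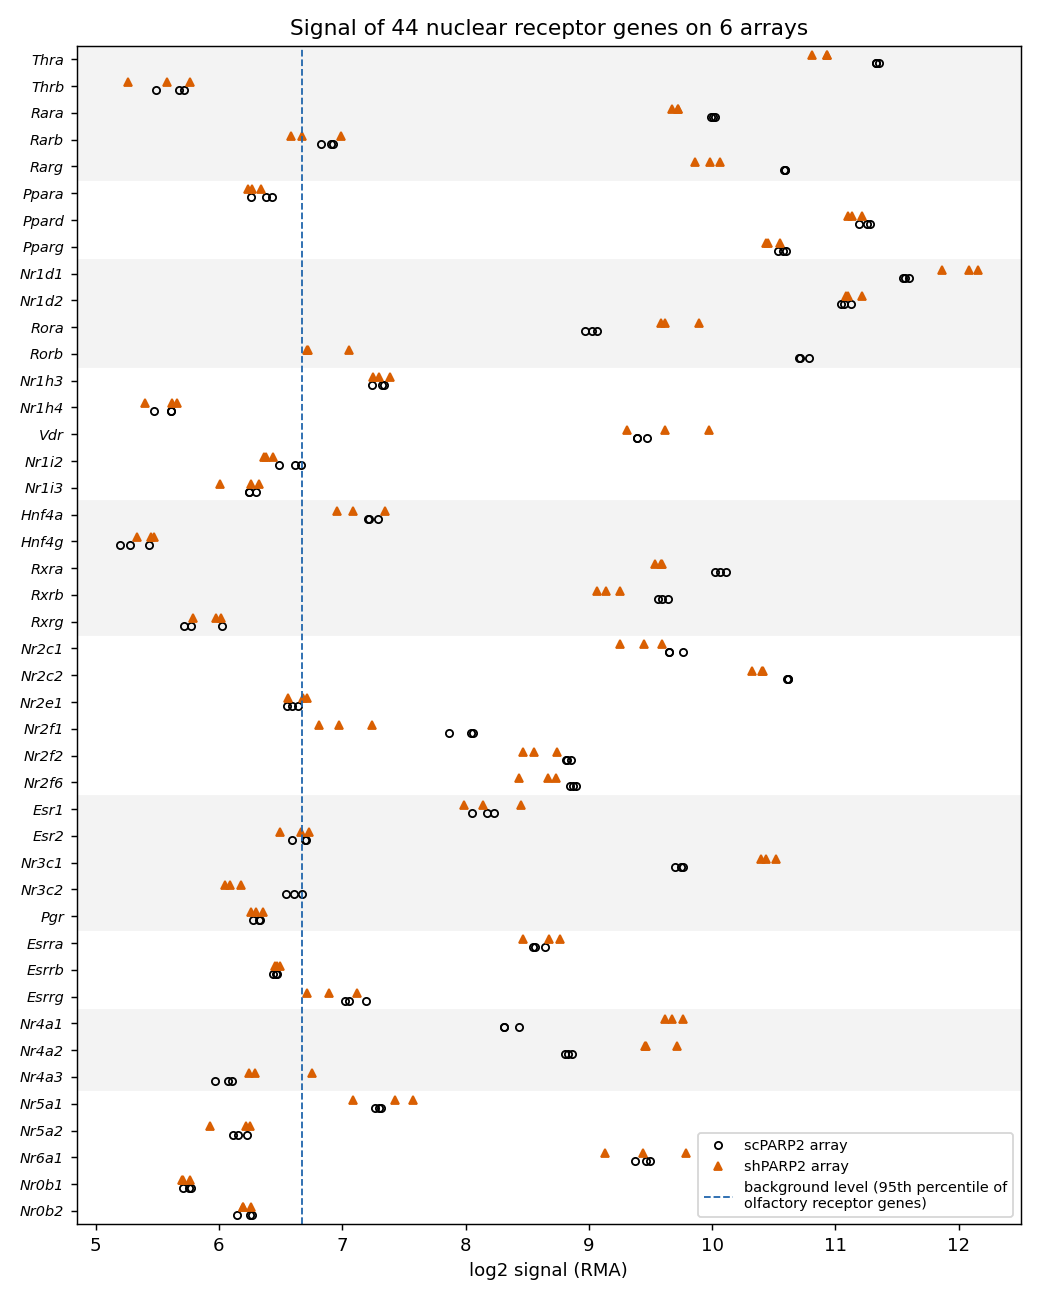
Log2 signal (horizontal axis) of the 44 receptor genes on each array, grouped by subfamily in grey and white bands. Circles are the 3 scPARP2 arrays, triangles the 3 shPARP2 arrays, and the dashed line is the background level of 6.67; Rorb drops from 10.73 to 6.83, close to that line, while the 16 receptors without signal above background stay near or left of it.

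Among the 28 receptors above background, shPARP2 cells had 5 higher and 8 lower at an adjusted p under 0.05. That is 46.4% of them, beside 34.5% of all 13150 genes above the same level. The lines did not overlap for 16 of the 28 receptors, beside 56.7% of genes above background. The median size of the log2 fold change was 0.25 for the 28 and 0.20 for all genes above background. Of the 16 receptors not above background, only Nr3c2 was called, beside 3.54% of such genes. Of the genes not above background, 1.43% were higher and 2.11% lower, and 1.52% were called with a change of at least 1.5-fold. Changes of at least 1.5-fold were seen for 7 of the 28 receptors, beside 14.5% of genes above background. By direction, 18.0% of genes above background were higher and 16.5% lower. The receptors were not tested as a set.

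**Figure D2:**
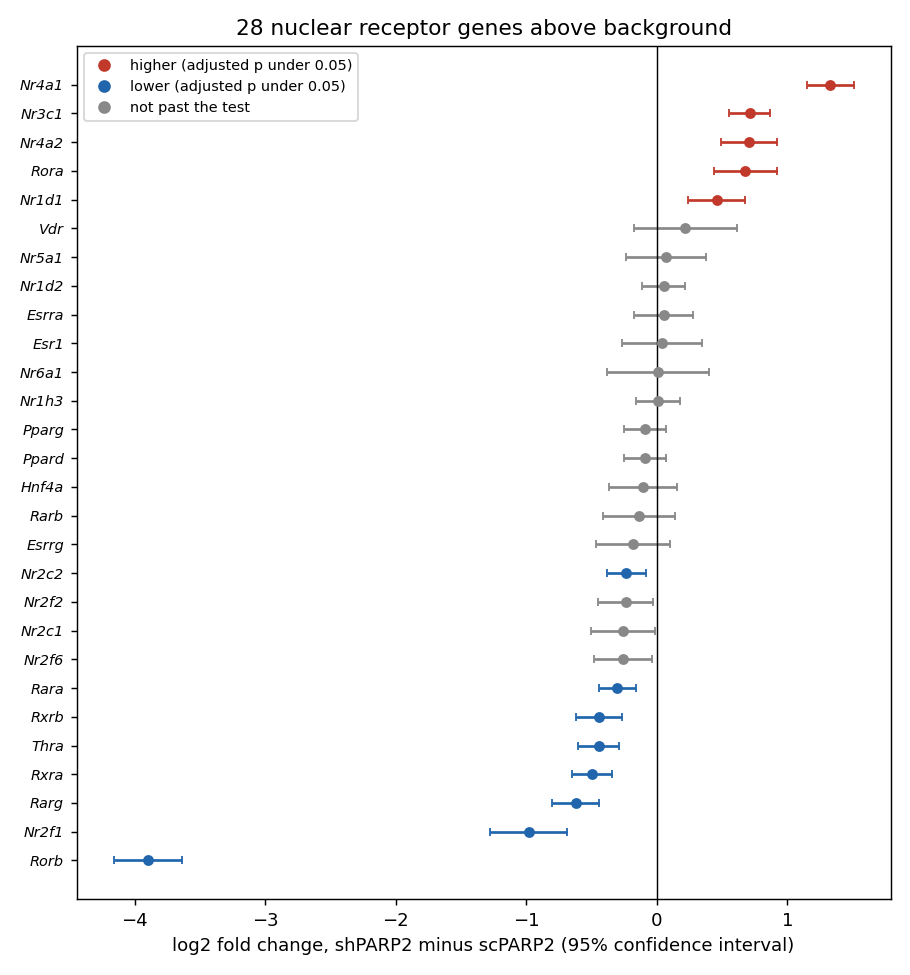
Log2 fold change of shPARP2 over scPARP2 cells (horizontal axis) for the 28 receptor genes above background, with 95% confidence intervals that are not adjusted for the number of genes. Red points are the 5 higher and blue points the 8 lower receptors past an adjusted p of 0.05; Rorb at -3.90 stands far to the left, and Nr4a1 at 1.33 is the highest.

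Rorb and Rora, related orphan receptors that activate genes through response elements with an AGGTCA core, went in opposite directions. Rorb read 10.71, 10.70 and 10.78 in the scPARP2 samples and 6.72, 7.06 and 6.71 in the shPARP2 samples. The lines were far apart, and the shPARP2 arrays lay close to the background level of 6.67. The log2 fold change was -3.90 and its SE 0.11 (adjusted p = 2.44e-05), or 6.69% of the scPARP2 signal, and only 7 of the 19938 genes, Rorb included, had a log2 fold change as low. Rora read 9.07, 9.03 and 8.97 in scPARP2 and 9.58, 9.62 and 9.90 in shPARP2 cells. All shPARP2 arrays were above all scPARP2 arrays, and the log2 fold change was 0.68 and its SE 0.10 (adjusted p = 0.00533).

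The repressors REV-ERB alpha and beta bind the same elements as the RORs. Nr1d1, which encodes REV-ERB alpha, read 11.56, 11.60 and 11.55 in scPARP2 and 12.08, 11.86 and 12.15 in shPARP2 cells, without overlap. Its log2 fold change was 0.46 and its SE 0.09 (adjusted p = 0.0157). The call ended without any one scPARP2 array or without shPARP2 replicate 1 (adjusted p from 0.0555 to 0.0708). Nr1d2, which encodes REV-ERB beta, had overlapping lines, with means of 11.08 ± 0.04 and 11.14 ± 0.07 (SD, n = 3 arrays each) and a log2 fold change of 0.05 (95% confidence interval -0.11 to 0.22). Of 5 clock genes known as REV-ERB and ROR targets, 4 were measured and all 4 rose, where 18.0% of genes above background were higher, with a median log2 fold change of 0.74 against -0.02 over all genes. Nfil3, a repressor that acts at D-box elements, rose by 1.73 (adjusted p = 3.62e-05) and Cry1, a core clock repressor, by 0.80 (adjusted p = 0.000815). Clock and Arntl (Bmal1), the partners of the clock's activator, rose by 0.68 (adjusted p = 0.00159) and 0.65 (adjusted p = 0.0011).

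RefSeq lists 2 starts for Rorb, and the arrays do not tell which one was used. The 250 bases before each start are shown because this receptor changed most, 5′ to 3′ on the gene's strand in build GRCm38.p6, with capitals for the GC box GGGCGG, the site of Sp1-like factors, on either strand. The outer start has 2 such matches and the inner one 0.
Rorb outer start, chr19:19111197-19111446, minus strand: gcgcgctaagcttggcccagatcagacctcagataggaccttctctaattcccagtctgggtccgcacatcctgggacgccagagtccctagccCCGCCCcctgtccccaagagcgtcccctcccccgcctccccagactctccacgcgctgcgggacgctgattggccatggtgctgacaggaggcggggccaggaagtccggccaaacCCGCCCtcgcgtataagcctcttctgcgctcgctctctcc
Rorb inner start, chr19:19001118-19001367, minus strand: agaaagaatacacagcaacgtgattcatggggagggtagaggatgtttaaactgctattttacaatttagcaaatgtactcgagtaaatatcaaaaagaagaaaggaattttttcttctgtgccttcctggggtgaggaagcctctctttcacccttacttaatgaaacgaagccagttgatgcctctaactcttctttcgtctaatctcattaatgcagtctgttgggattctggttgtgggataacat
Starts were listed for 42 of the 46 receptors. All 8 of the lower receptors with a listed start had a GC box before at least 1 start. So did 2 of 4 higher receptors and 13 of 28 that did not pass, beside 35.4% of all 27025 genes with a listed start. A gene with more listed starts has more stretches in which to match. Counted by start, a GC box lay before 11 of 16 starts of lower and 2 of 4 of higher receptors. It lay before 15 of 41 starts of receptors that did not pass, and before 32.7% of all starts. Neither the GC content of the stretches nor the signal of the gene was taken into account. The groups differ in signal, with 8 of the 9 lower receptors above background and 15 of the 30 that did not pass. The AGGTCA hexamer that nuclear receptors bind lay before 11 of the 63 receptor starts and 4607 of all 32851 starts. The E-box CACGTG, to which CLOCK and BMAL1 bind, lay before 7.94% of receptor starts and 6.02% of all starts. The antioxidant response element TGACNNNGC, which may overlap TGACG, lay before 9.52% and 10.2%, and the D-box TTATGTAA before 0 of the receptor starts and 0.819% of all starts.

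The NR4A receptors are orphan receptors of the immediate-early class, which are switched on quickly by cAMP, calcium and growth factor signals. Nr4a1, also called Nur77, read 8.43, 8.31 and 8.32 in scPARP2 and 9.67, 9.76 and 9.61 in shPARP2 cells. The lines were separate, with a log2 fold change of 1.33 and an SE of 0.07 (adjusted p = 0.000183), or 2.51-fold. Nr4a2, or Nurr1, read 8.86, 8.83 and 8.81 against 9.46, 9.45 and 9.71, also without overlap, and rose by 0.71 (SE 0.09, adjusted p = 0.00312). Nr4a3, or Nor1, read 5.97, 6.07 and 6.11 against 6.29, 6.76 and 6.24. Its arrays did not overlap either, but its mean was below the background level and its log2 fold change of 0.38 (95% confidence interval 0.03 to 0.73) did not pass the test (adjusted p = 0.137).

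The 3 NR4A genes share a sequence feature at their starts. TGACG is the core of the cAMP response element, to which CREB binds, and it occurs 4 times, on either strand, in the 250 bases before the listed start of each. The stretches are shown 5′ to 3′ on the gene's strand, in build GRCm38.p6, with the core or its reverse complement in capitals.
Nr4a1, chr15:101266596-101266845, plus strand: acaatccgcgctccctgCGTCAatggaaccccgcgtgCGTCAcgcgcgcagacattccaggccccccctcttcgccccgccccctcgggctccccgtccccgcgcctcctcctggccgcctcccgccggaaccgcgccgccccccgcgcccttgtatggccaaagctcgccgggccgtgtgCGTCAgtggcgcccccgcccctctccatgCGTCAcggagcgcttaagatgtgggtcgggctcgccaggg
Nr4a2, chr2:57124004-57124253, minus strand: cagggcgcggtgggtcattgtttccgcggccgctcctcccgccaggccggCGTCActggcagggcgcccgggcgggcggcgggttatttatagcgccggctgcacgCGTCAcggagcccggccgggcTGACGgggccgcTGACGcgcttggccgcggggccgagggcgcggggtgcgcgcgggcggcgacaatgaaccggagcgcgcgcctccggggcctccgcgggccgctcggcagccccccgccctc
Nr4a3, chr4:48045055-48045304, plus strand: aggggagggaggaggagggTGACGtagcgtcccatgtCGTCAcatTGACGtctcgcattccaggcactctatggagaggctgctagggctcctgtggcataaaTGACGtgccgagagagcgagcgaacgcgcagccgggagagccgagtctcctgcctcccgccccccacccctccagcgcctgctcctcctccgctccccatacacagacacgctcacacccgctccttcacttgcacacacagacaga
At least 1 match was found before 17.8% of all 32851 listed starts, and at least 4 matches before 45 of them, or 0.137%. Among the 63 receptor starts only these 3 had as many. The cut of 4 was the lowest count among the NR4A starts themselves, so these figures describe them and are not a test. Nr2e1 came next, with 3 matches and 1 complete palindrome. This palindrome, TGACGTCA, which contains the core on both strands, lay before 1.55% of all starts and before none of the 3 NR4A starts. Matches are letters in a window and not measured binding.

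**Figure D3:**
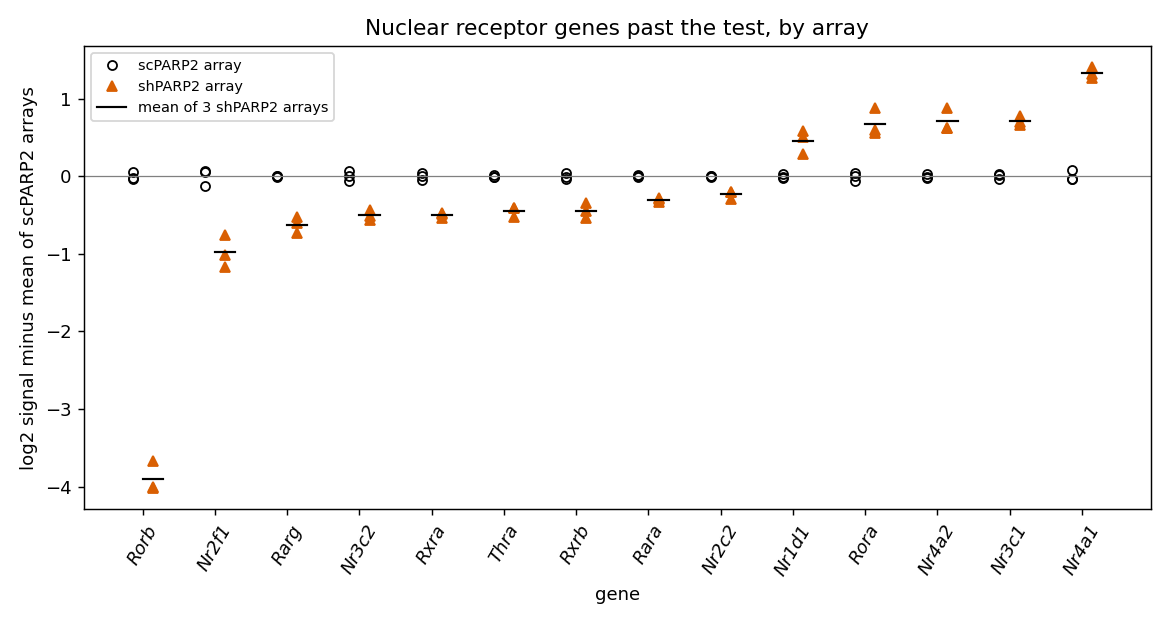
Log2 signal of the 14 receptor genes past the test on each array after subtraction of the scPARP2 mean (vertical axis). The scPARP2 arrays are circles, the shPARP2 arrays triangles, and a bar marks each shPARP2 mean. In each of the 14 genes the triangles lie to one side of the circles, with means from -3.90 for Rorb to 1.33 for Nr4a1. The genes were chosen by the test on these same arrays, and the lines did not overlap for 42.1% of all genes.

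Of 6 retinoid receptors, 4 fell in shPARP2 cells, where 11.6% of all genes and 16.5% of genes above background were lower, and the median log2 fold change was -0.37. Rarg, a receptor for all-trans retinoic acid, read 10.59 on each scPARP2 array and 9.98, 10.06 and 9.86 in shPARP2 cells (log2 fold change -0.62, SE 0.07, adjusted p = 0.00255). Rxra, the common partner of many receptors, read 10.11, 10.06 and 10.02 against 9.53, 9.60 and 9.58 (log2 fold change -0.50, SE 0.06, adjusted p = 0.00314). Rxrb, another retinoid X receptor, read 9.64, 9.56 and 9.59 against 9.14, 9.07 and 9.25 (log2 fold change -0.44, SE 0.07, adjusted p = 0.00869). The arrays of the lines did not overlap for any of these genes. Rara, the alpha receptor for retinoic acid, read 10.03, 10.01 and 9.99 against 9.68, 9.72 and 9.73, a log2 fold change of -0.30 and an SE of 0.06 (adjusted p = 0.0155). Its call ended without any one scPARP2 array (adjusted p from 0.0751 to 0.0796). The beta receptor Rarb, near the background level, had a log2 fold change of -0.14 (95% confidence interval -0.41 to 0.14), and Rxrg, below that level, one of 0.09 (-0.17 to 0.35).

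Of 14 genes that make, bind and clear retinoids, 3 rose and 1 fell, a share near the 24.0% of all genes, with a median log2 fold change of 0.03. Dhrs3, a reductase that turns retinal back into retinol and is itself induced by retinoic acid, fell from 12.67 ± 0.02 to 9.28 ± 0.45 (SD, n = 3 arrays each), with a log2 difference of -3.39 (adjusted p = 0.00027). Rdh11 and Rdh10, which interconvert retinol and retinal, rose by 0.78 and 0.58 (adjusted p = 0.00185 and 0.00369). Stra6, a retinol transporter, rose by 0.48 (adjusted p = 0.0313), a call that ended without any one scPARP2 array or without shPARP2 replicate 1 (adjusted p from 0.0827 to 0.107), or with centred arrays (0.0598). Of 8 retinoic acid targets measured, 7 of them above background, 2 fell and 1 rose, or 37.5%. Of all genes 24.0% were called in either direction, and of genes above background 34.5%. Besides Dhrs3 and Stra6, which are also in the list above, the called targets included Tgm2, a transglutaminase, with a log2 fold change of -1.17 (adjusted p = 0.00121). Crabp2, Cyp26a1 and Cyp26b1, also known targets, had log2 fold changes between -0.04 and 0.12 (adjusted p from 0.563 to 0.821), and Cyp26a1 read below background.

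Thra, the main thyroid hormone receptor gene of muscle, fell in shPARP2 cells. It read 11.33, 11.36 and 11.33 in scPARP2 and 10.81, 10.93 and 10.93 in shPARP2 cells, without overlap, a log2 fold change of -0.45 and an SE of 0.07 (adjusted p = 0.00544). Thra and Nr1d1, which moved in opposite directions, lie on opposite strands and share 1075 bases at their ends in the RefSeq table for GRCm38.p6. Whether probes of either set lie there was not tested. Thrb read below background, at 5.63 ± 0.12 and 5.54 ± 0.26 (SD, n = 3 arrays each). Dio2, the deiodinase that makes active thyroid hormone in the cell, rose from 7.77 ± 0.17 to 9.49 ± 0.40 (SD, n = 3 arrays each), with a log2 difference of 1.73 (adjusted p = 0.00246). Slc16a10, a thyroid hormone transporter, read below background and had a log2 fold change of -0.26 (adjusted p = 0.0479), a call lost without any one scPARP2 array or without shPARP2 replicate 1 or 3 (adjusted p from 0.0563 to 0.173), with centring (0.106), quantile normalization (0.0978) or a trended robust variance (0.0724). The other 3 genes of thyroid hormone metabolism and transport that were measured did not pass. Of 9 thyroid hormone receptor targets, 3 rose and 1 fell, beside 24.0% of all genes called. Atp2a1, the calcium pump of fast muscle, rose by 0.87 (adjusted p = 0.00519) and Me1, the cytosolic malic enzyme, by 0.41 (adjusted p = 0.00583). Hr, which is also a corepressor, rose by 0.41 (adjusted p = 0.0139), and Klf9, a Krüppel-like factor, had a log2 fold change of -0.38 (adjusted p = 0.0383). The calls of Hr and Klf9 ended without any one scPARP2 array, and that of Klf9 also without shPARP2 replicate 1 (adjusted p from 0.0575 to 0.139).

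Among the steroid hormone receptors, Nr3c1 rose and Nr3c2 fell. Nr3c1, the glucocorticoid receptor gene, read 9.75, 9.76 and 9.70 in scPARP2 and 10.40, 10.52 and 10.44 in shPARP2 cells, with a log2 fold change of 0.71 and an SE of 0.07 (adjusted p = 0.00102). Nr3c2, the mineralocorticoid receptor gene, read 6.61, 6.55 and 6.67 against 6.05, 6.09 and 6.18, with a log2 fold change of -0.50 and an SE of 0.07 (adjusted p = 0.00459). Neither gene's lines overlapped, but the means of Nr3c2 in both lines were under the background level. Esr1, the estrogen receptor alpha gene, read 8.15 ± 0.09 and 8.19 ± 0.23 (SD, n = 3 arrays each), with a difference of 0.04 (95% confidence interval -0.27 to 0.35). Esr2 and Pgr, the estrogen receptor beta and progesterone receptor genes, did not read above background.

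Of 18 glucocorticoid receptor targets, all above background, 4 rose and 4 fell, where 18.0% of genes above background were higher and 16.5% lower. Angptl4, a secreted inhibitor of lipoprotein lipase and also a PPAR target, rose by 1.77 (adjusted p = 0.00058), and Tsc22d3, the leucine zipper protein GILZ, rose by 1.06 (adjusted p = 0.0049). Fbxo32, the ubiquitin ligase atrogin-1 of muscle atrophy, fell by 1.61 (adjusted p = 0.000183), and Glul, glutamine synthetase, fell by 0.96 (adjusted p = 0.00107). Fkbp5, a well-known target, had a log2 fold change of 0.22 (adjusted p = 0.258). Of 10 chaperones of steroid receptors measured, all above background, 2 rose and 0 fell, beside 34.5% of genes above background called. An unadjusted p under 0.05 in limma was seen for 6 of them, beside 6316 of the 13150 genes above background. Dnaja1, a partner of HSP70, rose by 0.49 (adjusted p = 0.00915) and Ptges3, the HSP90 cochaperone p23, by 0.36 (adjusted p = 0.0383). The call of Ptges3 ended without any one scPARP2 array or without shPARP2 replicate 1 (adjusted p from 0.0645 to 0.137). Of 10 genes of steroid, oxysterol and vitamin D metabolism measured, 1 rose and 2 fell, beside 24.0% of all genes called. H6pd, which supplies NADPH for glucocorticoid activation in the endoplasmic reticulum, fell by 0.56 (adjusted p = 0.00236). Cyp27a1, the sterol 27-hydroxylase, rose by 0.40 (adjusted p = 0.0116), a call lost without scPARP2 replicate 2 or 3 (adjusted p = 0.0590 and 0.0586). Cyp2r1, a vitamin D hydroxylase far below background, fell by 0.31 (adjusted p = 0.0264), a call lost without any one scPARP2 array or without shPARP2 replicate 1 (adjusted p from 0.0559 to 0.124), with centring (0.0574) or a trended robust variance (0.105).

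Of the NR2 receptors other than the HNF4 and retinoid X receptors, 6 were measured, 5 of them above background, and 2 fell. Of all genes 11.6% were lower, and of genes above background 16.5%. Nr2f1, or COUP-TFI, read 7.87, 8.05 and 8.06 in scPARP2 and 6.82, 7.24 and 6.97 in shPARP2 cells. The arrays did not overlap, and the log2 fold change was -0.98 and its SE 0.12 (adjusted p = 0.00306), or 1.98-fold lower. The scPARP2 mean lay 1.32 and the shPARP2 mean 0.34 above the background level, which limits the size of the fold change. Nr2c2, or TR4, read 10.62, 10.62 and 10.61 against 10.32, 10.41 and 10.40, a log2 fold change of -0.23 and an SE of 0.06 (adjusted p = 0.0446). Its call ended without any one array other than shPARP2 replicate 2 (adjusted p from 0.0555 to 0.163) and when arrays were centred on their medians (adjusted p = 0.115). Nr2c1, Nr2f2 and Nr2f6, which encode TR2, COUP-TFII and EAR2, had log2 fold changes of -0.26, -0.24 and -0.26 and did not pass (adjusted p = 0.151, 0.121 and 0.112), although their lines did not overlap and their 95% confidence intervals lay below 0. Lines did not overlap for 56.7% of genes above background. Nr2f2 passed without shPARP2 replicate 2 (adjusted p = 0.0234), and with weights per array both Nr2f2 and Nr2f6 passed (adjusted p = 0.0155 and 0.0411). Nr2e1, the neural receptor TLX, did not read above background.

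The PPAR and estrogen-related receptors, which control fatty acid oxidation and mitochondrial genes in muscle, had overlapping lines. None of the 3 PPAR genes and none of the 3 ERR genes passed the test in limma, and 0 of them had an unadjusted p under 0.05. Ppard, the main PPAR of muscle, read 11.24 ± 0.05 and 11.15 ± 0.06 (SD, n = 3 arrays each), a difference of -0.09 (95% confidence interval -0.25 to 0.07). Pparg, the adipogenic PPAR, read 10.57 ± 0.03 and 10.48 ± 0.06 (SD, n = 3 arrays each), also a difference of -0.09 (-0.25 to 0.07), and Ppara was below background. Esrra, the estrogen-related receptor alpha gene, read 8.58 ± 0.05 and 8.64 ± 0.15 (SD, n = 3 arrays each), a difference of 0.05 (-0.17 to 0.28). Esrrg had a difference of -0.18 (-0.46 to 0.10), and Esrrb was below background.

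The gene of their shared coactivator PGC-1 alpha fell below the background level. Ppargc1a went from 10.10 ± 0.06 to 6.39 ± 0.16 (SD, n = 3 arrays each). Its scPARP2 mean lay 3.43 above the background level on the log2 scale, and since the shPARP2 mean lay below that level, the size of the fall is known only to be at least about this large (adjusted p = 2.44e-05 for the difference of the signals as measured, -3.72). Its relative Ppargc1b had a log2 fold change of -0.12 (adjusted p = 0.478). Of 16 PPAR targets measured, 12 of them above background, 2 rose and 4 fell, or 37.5%, with a median log2 fold change of -0.05. Of all genes 24.0% were called, and of genes above background 34.5%. The PPAR targets that passed all read above background. Pdk4, the kinase that shuts off pyruvate dehydrogenase, fell by 1.45 (adjusted p = 0.000336), and Acadm, a fatty acid oxidation enzyme also listed as an ERR target, fell by 0.64 (adjusted p = 0.00611). Angptl4 rose by 1.77, and Fabp3, the muscle fatty acid binding protein, by 0.53 (adjusted p = 0.0166). The call of Fabp3 ended without scPARP2 replicate 2 or 3 (adjusted p = 0.0673 and 0.0735). Of 9 ERR targets measured, 8 of them above background, 2 rose and 1 fell, or 33.3%, beside the same 24.0% and 34.5%. Mfn2, a mitochondrial fusion protein, rose by 0.49 (adjusted p = 0.00773), and Idh3a, a subunit of the tricarboxylic acid cycle's isocitrate dehydrogenase, by 0.35 (adjusted p = 0.0168). The call of Idh3a ended without any one scPARP2 array (adjusted p from 0.0536 to 0.0812).

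Of the receptors for oxysterols, bile acids, vitamin D and xenobiotics, 5 were measured and none passed the test in limma, with 1 (Nr1i2, below background) at an unadjusted p under 0.05. Nr1h3, the LXR alpha gene, read 7.30 ± 0.05 and 7.31 ± 0.07 (SD, n = 3 arrays each), a difference of 0.01 (95% confidence interval -0.16 to 0.18). These means lay only 0.63 and 0.64 above the background level, which limits what the difference can show. Vdr, the vitamin D receptor gene, read 9.39, 9.47 and 9.39 in scPARP2 and 9.62, 9.98 and 9.31 in shPARP2 cells, overlapping lines with a difference of 0.22 (-0.18 to 0.61). Of the 12 LXR targets, all above background, 5 rose and 4 fell, where 34.5% of genes above background were called. Those that rose were Acaca, Fasn, Scd1, Srebf1 and Lpcat3, genes of fatty acid and phospholipid synthesis and its control. Acaca, acetyl-CoA carboxylase, rose by 0.94 (adjusted p = 0.000525). Those that fell were Lpl, Mylip, Apoe and the cholesterol exporter gene Abca1. Lpl, lipoprotein lipase, fell by 1.99 (adjusted p = 5.01e-05), and Mylip, which degrades the LDL receptor, by 1.03 (adjusted p = 0.000262). Apoe, an apolipoprotein, fell by 0.77 (adjusted p = 0.0117), a call lost without scPARP2 replicate 2 (adjusted p = 0.0518).

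Of the remaining receptors above background, Hnf4a, Nr5a1 and Nr6a1 had log2 fold changes of -0.11, 0.07 and 0.01 with overlapping lines (adjusted p from 0.597 to 0.980). None of the 5 genes of the NR5, NR6 and NR0 subfamilies passed in limma, and 0 had an unadjusted p under 0.05. The 15 receptors that neither read above background nor passed included, besides those named above, the bile acid receptor gene Nr1h4, the xenobiotic receptor gene Nr1i3, Hnf4g, Nr5a2, Nr0b1 and Nr0b2. Over these 15, differences ran from -0.20 to 0.38 and adjusted p-values from 0.123 to 0.999, and signals this low allow little to be read about them.

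Among the coregulators, changes past the test other than that of Ppargc1a were of at most 0.70 on the log2 scale. Of 15 coactivators, 2 rose and 4 fell, beside 34.5% of genes above background called, with a median log2 fold change of 0.07. Ncoa3, a p160 coactivator, and Ep300, a histone acetyltransferase, fell by 0.40 and 0.36 (adjusted p = 0.0175 and 0.0168), and Pprc1, a PGC-1 relative, rose by 0.34 (adjusted p = 0.0215). All 3 calls ended without any one scPARP2 array, and those of Ncoa3 and Ep300 also without shPARP2 replicate 1 (adjusted p from 0.0502 to 0.0961). Of 9 corepressors measured, 1 rose and 3 fell, beside the same share. Tbl1xr1 and Tbl1x, scaffold subunits of the NCoR complex, fell by 0.70 and 0.34 (adjusted p = 0.00515 and 0.0134), and its deacetylase Hdac3 fell by 0.28 (adjusted p = 0.0299). The calls of Tbl1x and Hdac3 ended without any one scPARP2 array, and that of Hdac3 also without shPARP2 replicate 1 or 3 (adjusted p from 0.0567 to 0.131) and with centred arrays (0.0993). Over the 127 genes of all 13 lists, each counted once, 28 rose and 24 fell, or 40.9%, beside 24.0% of all genes and 34.5% of genes above background. These lists were drawn up from textbook roles but with earlier results of these data known, so the shares are not those of an independent choice. Most of their genes (109) read above background.

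**Figure D4:**
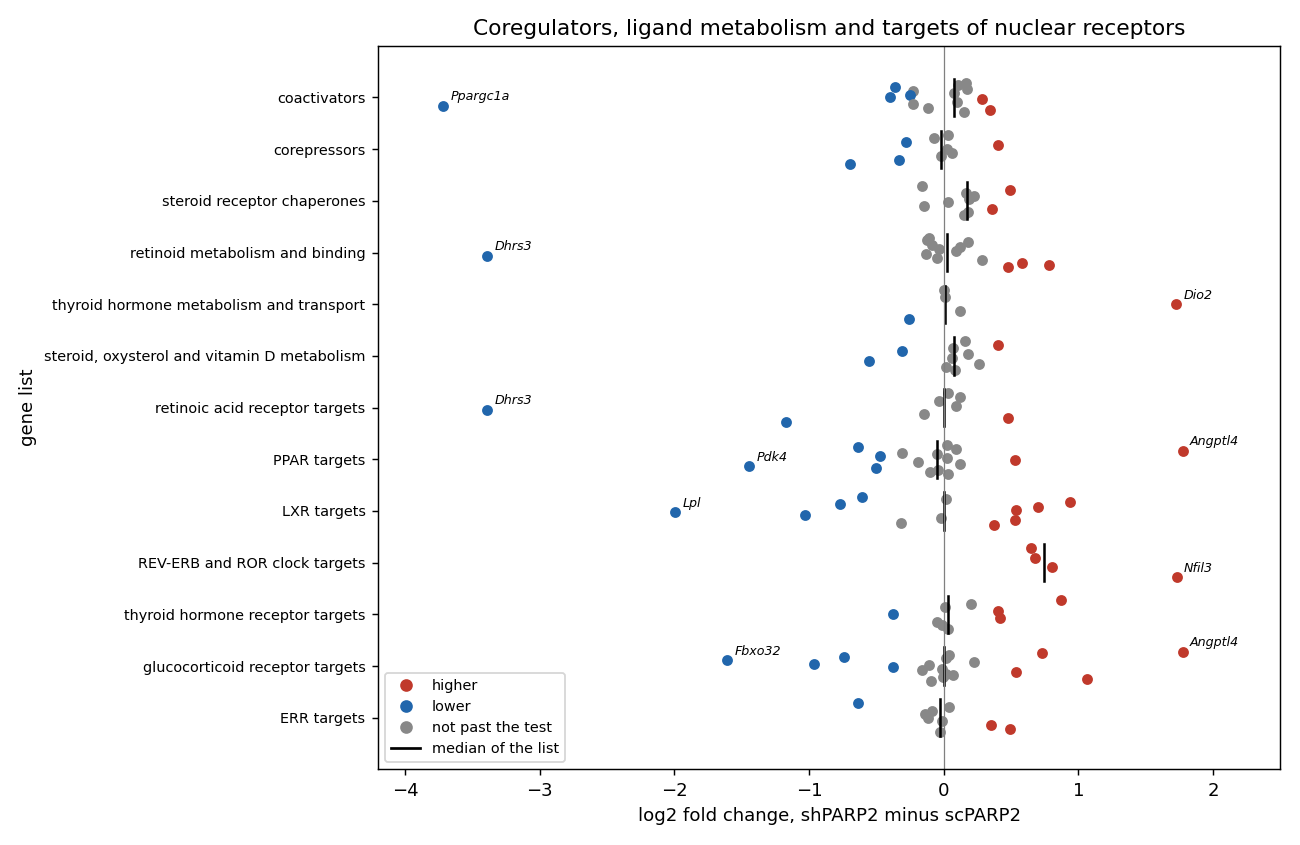
Log2 fold change of shPARP2 over scPARP2 cells (horizontal axis) for each measured gene of 13 lists of coregulators, ligand metabolism and receptor targets. Points are genes, red higher and blue lower at an adjusted p under 0.05, and bars are list medians; all 4 clock targets lie to the right of 0, whereas the LXR, PPAR and glucocorticoid receptor targets lie on both sides.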

How the data were processed

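Log2 expression values of 35556 probe sets were deposited by the authors, who made them with RMA on Affymetrix Mouse Gene 1.0 ST arrays (3 scPARP2 and 3 shPARP2 samples of C2C12 cells) per the labels; no source used here gives a software version for that step. Genes were named from GEO's platform annotation: 21789 probe sets name 1 gene, 1621 name several and 12146 are not named here. A gene was read from its single-gene probe set with the highest mean over 6 arrays. The test of shPARP2 against scPARP2 was limma's (version 3.58.1, R 4.3.3; lmFit, then eBayes, no covariate), p adjusted by Benjamini-Hochberg across the whole array and a threshold of 0.05; intervals are at 95%. The calculation was checked on simulated data. An array gives no read depth, so the 3 arrays per line limit the precision, as does signal over background for dim probe sets.

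Receptors and lists were chosen with earlier results of these data known. The text names Parp2, every receptor, markers, and from a list its most changed genes past the test (at most 4; where none passed, 2 by p); Fkbp5, Ppargc1b, Crabp2, Cyp26a1, Cyp26b1, Fasn, Lpcat3, Scd1, Srebf1 and Abca1 were added after their values were seen. Sequences are from RefSeq (GRCm38.p6). On both strands of the 250 bases before a start, 7 motifs were searched: TGACG, the palindrome TGACGTCA (which contains it), the receptor hexamer AGGTCA, the GC box GGGCGG, the E-box CACGTG, the antioxidant response element and the D-box TTATGTAA. Alternatives were quantile normalization, centring, leaving out dim or multi-gene probe sets, a trended robust variance, weights per array, replicate number as a block, other thresholds, averaging a gene's probe sets and leaving out each array. Figures were drawn with matplotlib 3.10.9.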

Additional observations from a re-analysis of the deposited data

How the results depend on the processing

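The 5 higher and 9 lower receptors were counted again under each alternative. Without any one array, 4 to 5 were higher and 7 to 10 lower, with fewer samples to estimate the spread. With a change of at least 1.5-fold required, 4 receptors were higher and 3 lower (Rorb, Nr2f1 and Rarg), 12 genes of the companion lists were higher and 13 lower, and 2785 probe sets were called instead of 6594. At an adjusted p under 0.01, 14 genes of these lists were lower instead of 24 and 3325 probe sets were called. Without any one array, 18 to 28 genes of these lists were higher, 14 to 26 were lower, and 3621 to 7231 probe sets were called. With the replicate number as a block, 5 receptors were higher and 7 lower (Rara at an adjusted p of 0.0673 and Nr2c2 at 0.124 were lost), and 15 genes of the lists were lower. Also lost with the block were the calls of Ncoa3, Ep300, Pprc1, Tbl1x, Hdac3, Ptges3, Klf9, Stra6, Cyp2r1, Slc16a10 and Des (adjusted p from 0.0587 to 0.126). With weights per array, 5 receptors were higher and 11 lower. Arrays of the same number did not deviate together (correlations of -0.05, 0.09 and 0.01), so the numbers were not taken as pairs. Of the values for Parp2 and the receptors under the alternatives, 677 kept their side of the threshold, 25 lost and 3 gained a call, and none changed sign while called. Genes near or below the background level, as Rorb, Nr2f1 and Ppargc1a are in shPARP2 cells, have a fold change limited by that level.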
